A study of Mus musculus with 18 samples.

Results

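Bone marrow macrophages (BMMs) lacking estrogen receptor α (ERα) were compared before and after 2 days of RANKL, the cytokine that starts osteoclast formation. The comparison took 6 of the 18 arrays of the series, chosen by their sample labels: 3 arrays of BMMs and 3 of pre-osteoclasts, all from ERalphaf/f;LysM-Cre mice, named ERαΔLysM here. In these mice both copies of the ERα gene are floxed, and Cre expressed from the lysozyme M gene removes it from cells of the myeloid lineage. The mice were of the C57BL/6 background and 2 to 3 months old. BMMs were bone marrow cells grown for 4 days in 30 ng/ml M-CSF, and pre-osteoclasts were BMMs kept for 2 more days in 30 ng/ml M-CSF and 30 ng/ml RANKL. All cells had also received estradiol (E2) for 4 h before collection, which the sample labels do not mention, so nothing here sets E2 against vehicle. A further 6 arrays of the same stages from ERalphaf/f mice, whose ERα is intact (ERαf/f here), served as context. LysM-Cre acts in the myeloid lineage before the RANKL step, and the share of cells that had lost the receptor could not be read from these arrays.

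RANKL binds RANK on macrophage-lineage cells and recruits TRAF6, which turns on NF-κB and MAP kinases. Together with calcium signals from ITAM-bearing receptors this induces c-Fos and NFATc1, the master transcription factor of osteoclasts. The cells then silence macrophage genes, enlarge their mitochondrial capacity, fuse, and build a sealing zone of actin inside which a vacuolar proton pump and cathepsin K dissolve bone. Pre-osteoclasts are the stage at which this program has started and cells are still largely mononuclear.

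Levels are the authors' normalized log2 values. A probe counted as detected on an array when its detection p against the negative control beads was under 0.05, and the 11739 probes detected on at least 3 of the 6 arrays were tested, standing for 8000 genes. Differences are pre-osteoclasts minus BMMs in log2 units, each with its standard error (SE) where it is given in full, from a limma fit over all 18 arrays. A gene is said to have risen or fallen where its Benjamini-Hochberg adjusted p was under 0.05. Where a gene had several tested probes, the one with the highest mean stood for it, and means are given ± SD with n = 3 arrays. The number of arrays limits the precision, and although BMMs came from 3 mice of each genotype, nothing states whether each array was a different animal, so p values measure the spread between these samples, which may be technical.

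Signal and detection overlapped between the stages. Median scanner signals were 129.7 to 176.5 in BMMs and 116.4 to 186.4 in pre-osteoclasts, and 11389 to 11570 against 11084 to 11934 probes were detected (two-sided exact permutation p = 0.9 for each, with 0.1 the smallest possible). The first principal component of the 6 arrays held 86.4% of the variance and separated the stages. The second held 4.5% and set pre-osteoclast replicate 2, at −25.53, apart from the other pre-osteoclast arrays at 13.34 and 12.66, and 5504 of the 6174 calls described next held without it. Both probes for Esr1, the gene of ERα, were below detection on all 18 arrays, so the arrays cannot check the deletion. Lyz2, the gene of lysozyme M whose locus carries the Cre, read 14.79, 14.72 and 14.86 in BMMs and 13.96, 13.93 and 13.87 in pre-osteoclasts, for a difference of −0.87 ± 0.11 (SE, adjusted p = 4.86e-06).

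Many transcripts differed between the stages, in both directions. Pre-osteoclasts had spent 2 more days in culture than BMMs as well as receiving RANKL, and with no group kept for those days without RANKL the effects of culture time and of RANKL cannot be told apart. At an adjusted p under 0.05 from limma, 6174 of 11739 probes differed (52.6%), 3286 higher (28.0%) and 2888 lower (24.6%) in pre-osteoclasts. Taking 1 probe a gene, 2332 of 8000 genes rose (29.1%) and 2073 fell (25.9%), and these shares are the background against which each gene list below is to be read. In 5905 of the called probes (95.6%) the 3 arrays of either stage lay wholly above those of the other. The same held for 6756 of all 11739 tested probes. Separated arrays are close to what passing the test requires, so this is no further evidence. By at least 1 log2 unit 1075 probes rose and 1261 fell, by at least 2 the counts were 261 and 454, by at least 4 they were 52 and 58, and by at least 5 they were 23 and 18. Among genes, 179 were below detection on every BMM array and detected on every pre-osteoclast array, and 151 showed the reverse. The median difference over all tested probes was 0.05. Under a scaling that only centred each array on its median, without quantile normalization, 3576 probes passed, 3554 of them with the calls given here.

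The largest rises were in genes of the resorptive cell. Scin, which encodes the actin-severing protein adseverin, read 5.04, 4.90 and 4.73 in BMMs and 13.11, 12.80 and 12.77 in pre-osteoclasts, and since no BMM array detected it, the rise is given as a bound, at least 181-fold (adjusted p = 1.81e-16). Mmp9, the gene of a gelatinase, read 6.86, 6.82 and 7.02 in BMMs and 14.87, 14.68 and 14.59 in pre-osteoclasts, for a difference of 7.81 ± 0.14 (SE, adjusted p = 4.96e-16). Ctsk, which encodes cathepsin K, the protease that degrades bone collagen, read 8.22, 7.94 and 7.88 in BMMs and 14.93, 14.97 and 14.90 in pre-osteoclasts, for a difference of 6.92 ± 0.11 (SE, adjusted p = 1.81e-16). For all 3 genes every pre-osteoclast array lay more than 6 log2 units above every BMM array.

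Several other genes among the 12 largest rises went from below detection to high levels. Dcstamp, the gene of the fusion protein DC-STAMP, read 5.09, 4.59 and 5.10 in BMMs and 12.11, 11.77 and 11.83 in pre-osteoclasts, a rise of at least 91.3-fold (adjusted p = 5.16e-15). Mycl, which encodes the transcription factor L-Myc, read 4.61, 4.65 and 4.80 in BMMs and 11.68, 11.45 and 11.35 in pre-osteoclasts, at least 68.8-fold higher. Car2, the gene of carbonic anhydrase II that supplies protons for resorption, read 4.84, 4.78 and 4.84 in BMMs and 10.62, 10.77 and 10.64 in pre-osteoclasts, at least 39.0-fold higher. In none of these 3 genes was any BMM array above detection, and their pre-osteoclast arrays lay within 0.4 of each other.

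The remaining genes of that group were Slc6a12, a betaine transporter gene (at least 61.6-fold higher), Vegfc, which encodes a lymphangiogenic growth factor (at least 43.0-fold higher), F2r, the thrombin receptor gene (at least 32.1-fold higher), Cyp2s1, a cytochrome P450 gene (a log2 difference of 6.17, detected on 1 BMM array), Slc9b2, which encodes a sodium-proton exchanger (5.98), and Matk, the gene of a kinase that restrains Src family kinases (5.33). A bare value in brackets after a gene is from here on its log2 difference. The adjusted p values of these 6 genes lay at or below 8.01e-14.

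Of the 16 osteoclast markers on the list, 13 passed the detection filter and 12 of these rose, with a median difference of 5.12 (4.87 with the 4 genes undetected in BMMs taken at their bounds), against 0.04 over all genes. Their summed level was 13.42 to 13.53 in BMMs and 16.37 to 16.52 in pre-osteoclasts, so the label of the stage and its markers went together. Acp5, the gene of tartrate-resistant acid phosphatase, read 4.95, 5.26 and 5.21 in BMMs and 10.27, 10.13 and 10.39 in pre-osteoclasts, at least 29.3-fold higher. Oscar, which encodes an ITAM-coupled collagen receptor, read 5.83, 6.25 and 5.35 in BMMs and 11.14, 10.89 and 10.77 in pre-osteoclasts, for a difference of 5.12 ± 0.19 (SE, adjusted p = 1.4e-12), and was detected on 2 BMM arrays. Ocstamp, the gene of another fusion protein, read 4.65, 4.60 and 4.64 in BMMs and 9.08, 9.16 and 9.45 in pre-osteoclasts, at least 14.3-fold higher. These markers were at or near background in BMMs and clearly present in every pre-osteoclast array.

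Other markers that all BMM arrays detected rose by less than Ctsk and Mmp9. Tcirg1, the gene of the osteoclast proton pump's a3 subunit, was at 11.77 ± 0.09 before and 13.25 ± 0.14 after RANKL (1.48), and Clcn7, which encodes the chloride-proton exchanger of the ruffled border, at 9.80 ± 0.22 before and 11.36 ± 0.04 after RANKL (1.56). Tnfrsf11a, the gene of RANK itself, was at 9.19 ± 0.14 before and 10.35 ± 0.35 after RANKL (1.16). Ostm1, whose product is the partner of the Clcn7 protein, did not pass, at 12.34 ± 0.12 before and 12.18 ± 0.05 after RANKL (−0.17, adjusted p = 0.18). Of the 3 markers under the filter, Calcr, the calcitonin receptor gene, read 4.49, 4.53 and 4.54 in BMMs and 5.49, 6.58 and 5.32 in pre-osteoclasts with its brightest probe, detected on 2 pre-osteoclast arrays and untested. Atp6v0d2 and Itgb3, the genes of a proton pump subunit and of the integrin β3 chain, were below detection on all 6 arrays. The Atp6v0d2 probe was below detection on all 18 arrays of the series.

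**Figure D1:**
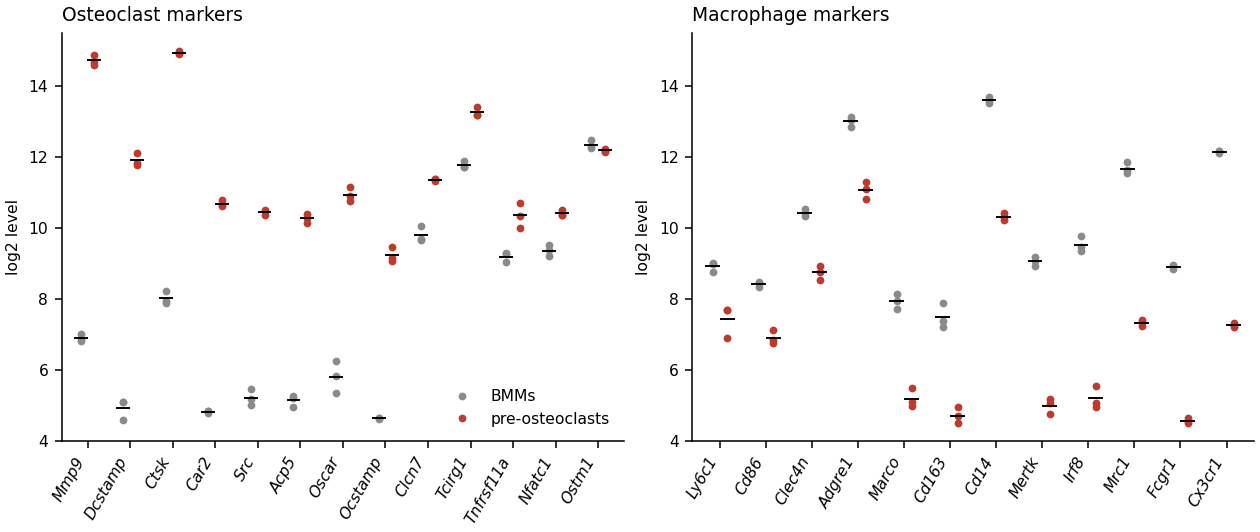
Log2 levels of the tested osteoclast markers (left) and macrophage markers (right) on the 3 BMM arrays (grey) and the 3 pre-osteoclast arrays (red) of ERαΔLysM cells, with bars at the group means and genes ordered by difference. All osteoclast markers but Ostm1 rose and all 12 macrophage markers fell, and in each called gene the points of the stages do not overlap.

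NFATc1 acts on osteoclast genes through sites with the core GGAAAA. To show where these letters lie, the promoters of 4 osteoclast markers that rose, picked from the 5 of 8 with a listed promoter that hold the letters, and of Ccl3, a chemokine gene that fell, are given from the RefSeq table of build GRCm38.p6, from 250 bases before to 50 after a listed start, 5′ to 3′ on the gene's strand, with GGAAAA or its complement TTTTCC in capitals.
Ctsk, chr3:95498960-95499259, plus strand: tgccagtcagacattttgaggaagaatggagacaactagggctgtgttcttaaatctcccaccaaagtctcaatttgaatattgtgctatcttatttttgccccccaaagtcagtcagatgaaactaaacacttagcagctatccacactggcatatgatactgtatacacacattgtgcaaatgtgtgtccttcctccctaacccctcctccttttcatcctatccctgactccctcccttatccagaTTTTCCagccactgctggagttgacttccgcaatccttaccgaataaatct
Acp5, chr9:22135697-22135996, minus strand, the listed start of 3 that holds the letters: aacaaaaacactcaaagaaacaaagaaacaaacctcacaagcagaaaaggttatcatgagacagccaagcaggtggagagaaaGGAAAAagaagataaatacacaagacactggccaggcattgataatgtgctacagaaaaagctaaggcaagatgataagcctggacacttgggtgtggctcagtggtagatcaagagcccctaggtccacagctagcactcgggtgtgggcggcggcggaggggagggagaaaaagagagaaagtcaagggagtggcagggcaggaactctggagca
Oscar, chr7:3616108-3616407, minus strand: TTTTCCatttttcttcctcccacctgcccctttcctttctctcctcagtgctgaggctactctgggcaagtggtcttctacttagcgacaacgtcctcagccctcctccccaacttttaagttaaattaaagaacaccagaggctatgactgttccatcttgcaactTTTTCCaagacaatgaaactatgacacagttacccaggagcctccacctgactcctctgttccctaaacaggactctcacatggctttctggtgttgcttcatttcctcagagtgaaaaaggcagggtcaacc
Clcn7, chr17:25133141-25133440, plus strand, 1 of 2 listed starts: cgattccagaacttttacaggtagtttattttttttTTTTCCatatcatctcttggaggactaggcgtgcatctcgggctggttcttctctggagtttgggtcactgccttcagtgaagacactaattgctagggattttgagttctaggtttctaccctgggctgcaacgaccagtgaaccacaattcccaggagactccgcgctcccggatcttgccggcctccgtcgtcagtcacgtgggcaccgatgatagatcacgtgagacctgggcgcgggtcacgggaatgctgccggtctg
Ccl3, chr11:83649329-83649628, minus strand: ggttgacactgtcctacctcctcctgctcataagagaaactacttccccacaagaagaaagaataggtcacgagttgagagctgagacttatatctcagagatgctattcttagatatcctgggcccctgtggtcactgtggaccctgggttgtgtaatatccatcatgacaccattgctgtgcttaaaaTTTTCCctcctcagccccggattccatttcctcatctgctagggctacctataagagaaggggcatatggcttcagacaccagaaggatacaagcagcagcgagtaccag

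Oscar holds 2 matches and each of the other windows 1. The letters are common: 23.4% of all 32851 promoter windows hold them, 21.9% of those of genes that rose and 20.3% of those of genes that fell. Counted by gene, 26.1% of all 27025 genes with a listed promoter hold them. So do 5 of 8 osteoclast markers, 3 of 8 macrophage markers and 2 of 10 chemokine ligand genes. Ccl3, too, was picked from genes that hold them. A match is a description of the sequence and no evidence of binding. The other motifs searched were likewise spread over both directions. The AP-1 site TGANTCA was in 6.4% of windows of genes that rose, 6.1% of those that fell and 7.8% of all, the NF-κB consensus in 5.7%, 5.3% and 4.8%, the PU.1 site GAGGAAGT in 2.8%, 4.0% and 3.2%, the M-box TCATGTG in 1.8%, 2.6% and 3.8%, and the E-box CACGTG, read by MITF and by many other factors, in 10.8%, 9.9% and 7.2%. The sterol element TCACNCCAC was in 1.0%, 1.2% and 1.2% and the E2F site TTTGGCGC in 1.0%, 0.8% and 0.5%. Both strands were searched, the windows matched 6625 of the 8000 genes, and no test was made.

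The largest falls were in genes of monocyte recruitment and innate defense. Ccl7, the gene of a monocyte chemoattractant, read 13, 12.73 and 12.84 in BMMs and 4.76, 4.74 and 5.48 in pre-osteoclasts, for a difference of −7.87 ± 0.18 (SE, adjusted p = 5.09e-15), and was detected on 1 pre-osteoclast array. Ccl2, which encodes the main ligand of the monocyte receptor CCR2, read 12.50, 12.48 and 12.44 in BMMs and 5.33, 5.76 and 5.52 in pre-osteoclasts, for a difference of −6.94 ± 0.24 (SE, adjusted p = 6.9e-13). Ccl4, the gene of an inflammatory chemokine, read 14.21, 14.27 and 14.29 in BMMs and 6.66, 6.65 and 7.37 in pre-osteoclasts, for a difference of −7.36 ± 0.20 (SE, adjusted p = 2.85e-14). In all 3 the BMM arrays lay within 0.3 of each other and at least 6.6 above every pre-osteoclast array.

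Ch25h, the gene of cholesterol 25-hydroxylase that makes an antiviral oxysterol, read 12.77, 12.61 and 12.65 in BMMs and 5.07, 5.17 and 5.45 in pre-osteoclasts, for a difference of −7.45 ± 0.18 (SE, adjusted p = 6.9e-15). Id1, which encodes an inhibitor of helix-loop-helix factors, read 11.69, 11.97 and 11.94 in BMMs and 5.62, 5.60 and 4.89 in pre-osteoclasts, for a difference of −6.50 ± 0.21 (SE, adjusted p = 3.28e-13). C1qa, the gene of a chain of complement C1q, read 12.34, 12.49 and 12.47 in BMMs and 6.43, 6.68 and 5.83 in pre-osteoclasts, for a difference of −6.12 ± 0.18 (SE, adjusted p = 5.95e-14). Detection was lost on part of the pre-osteoclast arrays for Ch25h (1 of 3 detected) and Id1 (2 of 3), while C1qa was detected on all. The other genes among the 12 largest falls were Ccl12 and Ccl3, further chemokine genes (−7.32 and −5.50), Rnase4 and Ang, which encode secreted ribonucleases (−6.31 and −5.46) and share a listed start, Cyp4f18, a cytochrome P450 gene (−5.70), and AA467197 (−5.76), and Ccl12, Ang and Cyp4f18 were each detected on 1 pre-osteoclast array.

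All 12 tested macrophage markers fell, with a median of −3.03 and a summed level of 14.99 to 15.01 in BMMs against 12.09 to 12.25 in pre-osteoclasts. In RNA from whole cultures, fewer cells of a type and less RNA per cell cannot be told apart. Cx3cr1, the fractalkine receptor gene, read 12.16, 12.11 and 12.17 in BMMs and 7.33, 7.21 and 7.27 in pre-osteoclasts, for a difference of −4.88 ± 0.14 (SE, adjusted p = 4.89e-14). Mrc1, which encodes the mannose receptor, read 11.54, 11.84 and 11.62 in BMMs and 7.36, 7.22 and 7.41 in pre-osteoclasts, for a difference of −4.34 ± 0.15 (SE, adjusted p = 4.14e-13). Adgre1, the gene of the F4/80 antigen, read 13.11, 13.05 and 12.85 in BMMs and 11.28, 11.09 and 10.80 in pre-osteoclasts, for a difference of −1.95 ± 0.13 (SE, adjusted p = 1.49e-09). The stages did not overlap in any of these, and all 3 stayed detected on every pre-osteoclast array. Fcgr1, Mertk and Cd163, the genes of a high-affinity IgG receptor, an efferocytosis kinase and a hemoglobin scavenger receptor, were below detection on all pre-osteoclast arrays, which puts Fcgr1 at least 11.5-fold, Mertk at least 12.7-fold and Cd163 at least 4.26-fold lower. Ccr2 and Msr1 were below detection on all 6 arrays.

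Neutrophil markers moved the same way as the macrophage markers, and their part in the falls was not tested. Of 14 tested, 13 fell and 1 did not pass, with a median of −0.88 and a summed level of 14.47 to 14.62 in BMMs against 13.35 to 13.89 in pre-osteoclasts. S100a8, the gene of a calgranulin, was at 13.60 ± 0.09 before and 12.76 ± 0.32 after RANKL (−0.84). Prtn3 and Mpo, which encode granule proteins, fell by more (−1.41 and −1.19). Defining markers of other cells were largely absent. No mast cell or basophil marker was tested, and of lymphocyte and NK, dendritic cell, and erythroid and megakaryocyte markers 2 each passed the filter, among them Pf4, which macrophages also express (−3.42). Of 13 stromal and osteoblast markers on the array 2 were tested, and Dcn, the gene of the matrix proteoglycan decorin, rose from below detection to 7.98, 8.45 and 8.07, at least 6.86-fold higher, while Col1a1, Col1a2, Col3a1, Pdgfra, Pdgfrb, Sp7 and Bglap did not pass the filter.

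The signaling genes between RANK and the nucleus moved unevenly. Of 24 tested genes of RANKL and M-CSF signaling, 9 rose, 5 fell and 10 did not pass (median 0.17), where over all genes 29.1% rose and 25.9% fell. Src, the gene of the kinase needed for the ruffled border, read 5.19, 5.46 and 5.0 in BMMs and 10.48, 10.36 and 10.50 in pre-osteoclasts, for a difference of 5.23 ± 0.14 (SE, adjusted p = 3.27e-14), and 1 BMM array detected it. Traf6, which encodes the adaptor of RANK, was at 9.27 ± 0.02 before and 9.96 ± 0.28 after RANKL (0.69), and Traf2 and Tab1, the genes of further adaptors of this receptor complex, also rose (1.31 and 0.64). Negative regulators rose with them, Tnfaip3 (1.92) and Cyld (0.53), which encode deubiquitinases, and so did Rcan1, the gene of a calcineurin inhibitor that is itself an NFAT target (1.21). Ppp3ca, which encodes the catalytic subunit of calcineurin, fell (−0.65), as did Plcg2 and Mapk14, the genes of phospholipase Cγ2 and p38α (−0.60 and −0.54). A dimmer probe did not pass for Src (0.60), Traf6 (0.11), Tab1 (0.60) and Ppp3ca (−0.16).

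Among 14 tested NF-κB genes 8 rose, 2 fell and 4 did not pass (median 0.78). Nfkb2, which encodes the p100 precursor of the non-canonical pathway, read 7.34, 6.83 and 7.10 in BMMs and 9.64, 9.18 and 9.10 in pre-osteoclasts, for a difference of 2.22 ± 0.17 (SE, adjusted p = 1.06e-08). Its partner gene Relb read 7.58, 7.85 and 7.72 in BMMs and 8.73, 8.81 and 8.93 in pre-osteoclasts, for a difference of 1.10 ± 0.13 (SE, adjusted p = 1.31e-06). Rela, the gene of the canonical subunit p65, read 11.69, 11.54 and 11.41 in BMMs and 11.56, 11.43 and 11.56 in pre-osteoclasts and did not pass (−0.03, adjusted p = 0.854). The non-canonical pair thus lay higher in every pre-osteoclast array, while the Rela values of the stages overlapped. Rel (1.27), the atypical inhibitor gene Bcl3 (1.61) and the inhibitor genes Nfkbie (0.92) and Nfkbia (0.64) rose, and Nfkbiz, which encodes an inducible nuclear inhibitor family member, fell (−1.78).

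Genes listed as ITAM receptors and adaptors fell apart from Oscar: of 10 tested, 1 rose and 9 fell (median −1.95). Counted among the falls are Fcgr2b (−1.705) and Sirpa (−0.608), which encode inhibitory receptors and not ITAM receptors. Trem2, the gene of the DAP12-coupled receptor, was at 13.38 ± 0.07 before and 11.02 ± 0.24 after RANKL (−2.36). The adaptor genes themselves fell less, Tyrobp, which encodes DAP12, by 0.60 and Fcer1g, which encodes the FcRγ chain, by 1.25 log2 units. Fcgr3, an IgG receptor gene, dropped by 3.99. Of 9 tested integrin genes 2 rose, Itgb7 (2.60) and Itgav (1.83), the latter encoding the αv chain of the osteoclast's vitronectin receptor, and 6 fell, led by Itga6 (−3.18) and Itgb5 (−2.61), whose product is another partner of αv.

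Genes listed as osteoclast-promoting transcription factors rose more often than they fell: of 21 tested, 11 rose, 6 fell and 4 did not pass (median 0.57). A place on this list or on that of repressors below is a label. How each member acts on osteoclasts was not tested. Ppargc1b, the gene of the mitochondrial coactivator PGC-1β, read 6.67, 6.48 and 6.41 in BMMs and 11.09, 10.97 and 10.98 in pre-osteoclasts, for a difference of 4.5 ± 0.11 (SE, adjusted p = 1.48e-14). Nfatc1 read 9.21, 9.5 and 9.37 in BMMs and 10.36, 10.37 and 10.50 in pre-osteoclasts, for a difference of 1.05 ± 0.11 (SE, adjusted p = 4.53e-07). Fos read 11.21, 10.80 and 10.96 in BMMs and 12.94, 12.70 and 12.33 in pre-osteoclasts, for a difference of 1.67 ± 0.18 (SE, adjusted p = 5.65e-07). All 3 were higher in every pre-osteoclast array on these probes. For Nfatc1 the size depended on the probe, since 4 dimmer probes gave 4.2, 1.38, 1.05 and −0.20, the last of which did not pass.

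Others in the group were Bhlhe40, which encodes a repressor of the helix-loop-helix family (3.27), Mitf and Tfec, the genes of related factors that act on resorption genes (1.66 and 1.04), Junb (1.09), Esrra, which encodes the estrogen-related receptor α that PGC-1β coactivates (1.09), and Spi1, the gene of PU.1 (0.60). Prdm1, which encodes Blimp1, the repressor that silences macrophage genes, rose from below detection to 7.37, 7.36 and 7.15, at least 3.74-fold higher. Jun (−1.35), Runx1 (−1.22), Tal1 (−1.33), Fosl1 (−1.05), Tfe3 (−0.96) and Pparg (−1.96) fell, so that the AP-1 genes split, with Fos and Junb up and Jun and Fosl1 down. Myc did not pass (0.43, adjusted p = 0.145).

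Genes listed as repressors of the osteoclast fate fell almost throughout: of 13 tested, 1 rose, 11 fell and 1 did not pass (median −1.91). Irf8, the gene of an interferon regulatory factor that blocks NFATc1, read 9.46, 9.33 and 9.78 in BMMs and 5.54, 5.08 and 4.97 in pre-osteoclasts, for a difference of −4.33 ± 0.18 (SE, adjusted p = 4.12e-12), with 1 pre-osteoclast array above detection. Bcl6, which encodes a target of Blimp1, read 11.59, 11.50 and 11.62 in BMMs and 9.84, 9.46 and 9.73 in pre-osteoclasts, for a difference of −1.89 ± 0.11 (SE, adjusted p = 3.78e-10). Rbpj, the gene of the nuclear effector of Notch, read 7.05, 7.24 and 7.37 in BMMs and 5.12, 5.27 and 5.43 in pre-osteoclasts, for a difference of −1.94 ± 0.19 (SE, adjusted p = 2.07e-07). Besides Id1, the related genes Id2 and Id3 fell (−2.83 and −2.51), as did Cebpb (−2.02), Cebpa (−1.59) and Nrros (−1.91). Egr2, whose product induces Id genes in osteoclast precursors, was the member that rose (0.96). Of 9 KLF and EGR genes 2 rose, 6 fell and 1 did not pass, with Klf2, the gene of a factor that keeps monocytes quiescent, at 10.30 ± 0.06 before and 6.25 ± 0.33 after RANKL (−4.06).

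**Figure D2:**
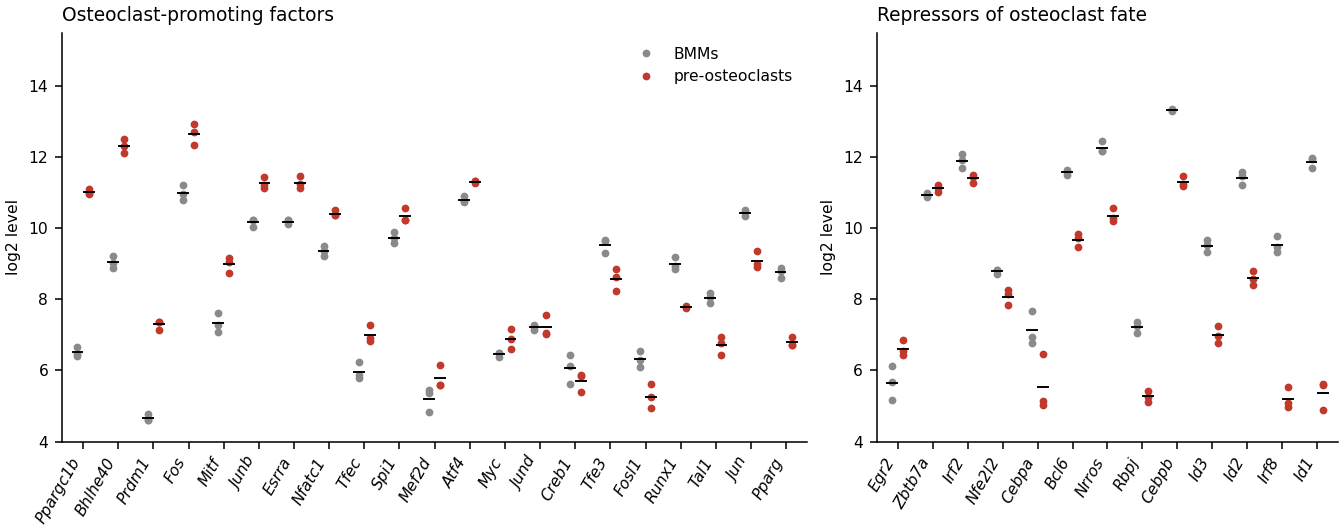
Log2 levels of the tested genes listed as osteoclast-promoting transcription factors (left) and as repressors (right) on the 3 BMM arrays (grey) and the 3 pre-osteoclast arrays (red), with bars at the group means and genes ordered by difference. Ppargc1b stands apart on the left with a difference of 4.5, and 11 of the 13 genes listed as repressors fell.

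The machinery of acid secretion rose modestly. Of 16 tested genes of the vacuolar proton pump, 11 rose, 1 fell and 4 did not pass (median 0.54). Atp6v1d and Atp6v1b2, which encode subunits of the catalytic domain, were at 11.62 ± 0.06 before and 13.48 ± 0.18 after RANKL and at 12.71 ± 0.04 before and 14.39 ± 0.17 after RANKL (1.86 and 1.68). Atp6v0a1, the gene of the a1 isoform, fell from 10.85, 10.95 and 10.92 to 8.23, 7.74 and 7.91 (−2.95), while the a3 gene Tcirg1 rose. Of the a subunit genes, a1 was thus lower and a3 higher in every pre-osteoclast array than in every BMM array.

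Lysosomal genes split. Of 32 tested, 9 rose, 14 fell and 9 did not pass (median −0.17). After Ctsk, the largest rises were in Arsb (2.05), Smpd1 (1.37) and Gaa (1.20), the genes of arylsulfatase B, acid sphingomyelinase and acid α-glucosidase. Of the other cathepsin genes, Ctsf (0.98) and Ctsa (0.31) rose, and Ctsc (−2.54), Ctsh (−2.26), Ctsl (−1.72), Ctsd (−1.18) and Ctsb (−0.42) fell, together with Lgmn, which encodes legumain (−2.23), and the membrane protein genes Lamp1 (−1.14) and Lamp2 (−1.44). Ctss and Ctsz did not pass (−0.60 and 0.13). Dimmer Ctsa probes gave 0.92, which passed, and 0.18 and 0.09, which did not.

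Among 11 metalloproteinase genes and their inhibitors, 3 rose and 7 fell (median −1.13). Mmp14, the gene of a membrane-bound collagenase, read 8.43, 8.60 and 8.61 in BMMs and 13.55, 13.24 and 13.14 in pre-osteoclasts, for a difference of 4.76 ± 0.13 (SE, adjusted p = 2.84e-14). Mmp13 and Mmp12, which encode a collagenase and the macrophage elastase, fell (−3.09 and −1.35), and so did the inhibitor gene Timp1 (−1.40). Of 22 genes of the actin ring and podosomes 7 rose, 5 fell and 10 did not pass, near the 29.1% and 25.9% over all genes. Beside Scin, rises were seen in Pstpip1, the gene of a podosome protein (1.81), Pxn, which encodes paxillin (1.67), and Vcl, which encodes vinculin (1.20). Coro1a, the gene of a leukocyte actin regulator, fell (−2.09), as did Ptk2b, which encodes the adhesion kinase PYK2 (−1.59). For cell fusion, Dcstamp, Ocstamp and Myo10 (2.11) rose, while 7 of 11 members fell, among them Cd81 (−2.80), Cd9 (−0.46) and Cd47 (−0.47), the genes of membrane proteins that modulate macrophage fusion.

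Of 20 genes on the array for factors by which osteoclasts act on other cells, 12 were under the filter. Of the 8 tested, 6 rose, 1 fell and 1 did not pass (median 0.80), where over all genes 29.1% rose and 25.9% fell. No BMM array detected 3 of the 8, which passed the filter only through pre-osteoclasts. The direction of these 3 was thus set by the filter. Sema7a and Sphk1, the genes of a semaphorin and of the kinase that makes sphingosine 1-phosphate, were below detection in BMMs and were each at least 12.8-fold higher in pre-osteoclasts. Sema4d and Pdgfb, which encode further signals to osteoblasts and vessels, rose less (0.80 for each).

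The defense functions of the macrophage fell as groups. Of 14 chemokine ligand genes 13 fell (median −3.53, −3.21 with undetected genes at their bounds), including Cxcl14 (at least 18.4-fold lower), Cxcl2 (at least 7.97-fold lower) and Cxcl10 (−2.92). Ccl9, which encodes a chemokine that osteoclast precursors make, was the member that rose, from 14.12, 14.21 and 14.04 to 14.96, 15.03 and 14.72 (0.78). Among chemotactic receptors Ccr3 rose from below detection (at least 3.74-fold) and Cxcr4, the receptor gene for the marrow chemokine CXCL12, rose (1.09), while C5ar1, the receptor gene for complement C5a, fell (−4.41), as did 6 of the 8 tested receptors in all.

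Toll-like receptors and their partners fell in 15 of 20 tested genes, and 1 rose (median −1.71). Tlr4, the lipopolysaccharide receptor gene, was at 9.13 ± 0.03 before and 7.80 ± 0.41 after RANKL (−1.33). Cd14, its coreceptor gene, read 13.58, 13.51 and 13.69 in BMMs and 10.21, 10.42 and 10.30 in pre-osteoclasts, for a difference of −3.28 ± 0.10 (SE, adjusted p = 6.19e-14). The nucleic acid sensor genes Tlr7 (−3.21), Tlr13 (−4.12) and Tlr8 (at least 4.71-fold lower) fell by more than Myd88, which encodes the shared adaptor (−0.33). Ly86, the gene of the MD-1 cofactor, had the largest fall of this list (−5.35).

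Interferon-stimulated genes fell in 14 of 16 and rose in none (median −1.68), with Oasl2 at 9.56 ± 0.13 before and 5.54 ± 0.46 after RANKL (−4.02) and Rsad2, which encodes viperin, at 8.35 ± 0.24 before and 5.88 ± 0.25 after RANKL (−2.47). Irf7 and Isg15 did not pass (−0.41 and −0.76). Of 10 complement and Fcγ receptor genes 8 fell (median −3.10), including C1qb (−5.0) and C1qc (−5.27). All 11 tested scavenger and phagocytosis genes fell (median −3.34), among them Stab1, the stabilin-1 gene (−4.36), and Gas6, which encodes a bridge to dying cells (−3.34). Siglec1, the sialoadhesin gene, was below detection in pre-osteoclasts, at least 7.20-fold lower.

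Of 12 inflammatory mediator genes 1 rose, 8 fell and 3 did not pass (median −1.14). Tnf read 10.13, 10.17 and 10.22 in BMMs and 6.79, 5.86 and 6.85 in pre-osteoclasts, for a difference of −3.67 ± 0.20 (SE, adjusted p = 1.52e-10). Arg1, the arginase gene, and Il18 fell (−3.99 and −3.09), while Il1rn, which encodes the interleukin-1 receptor antagonist, rose (0.99). Antigen presentation was mixed: of 9 genes 1 rose, 4 fell and 4 did not pass, with Cd74, the invariant chain gene, up (0.75) and Cd40 (−2.66) and Cd86 (−1.5), the genes of costimulatory receptors, down.

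**Figure D3:**
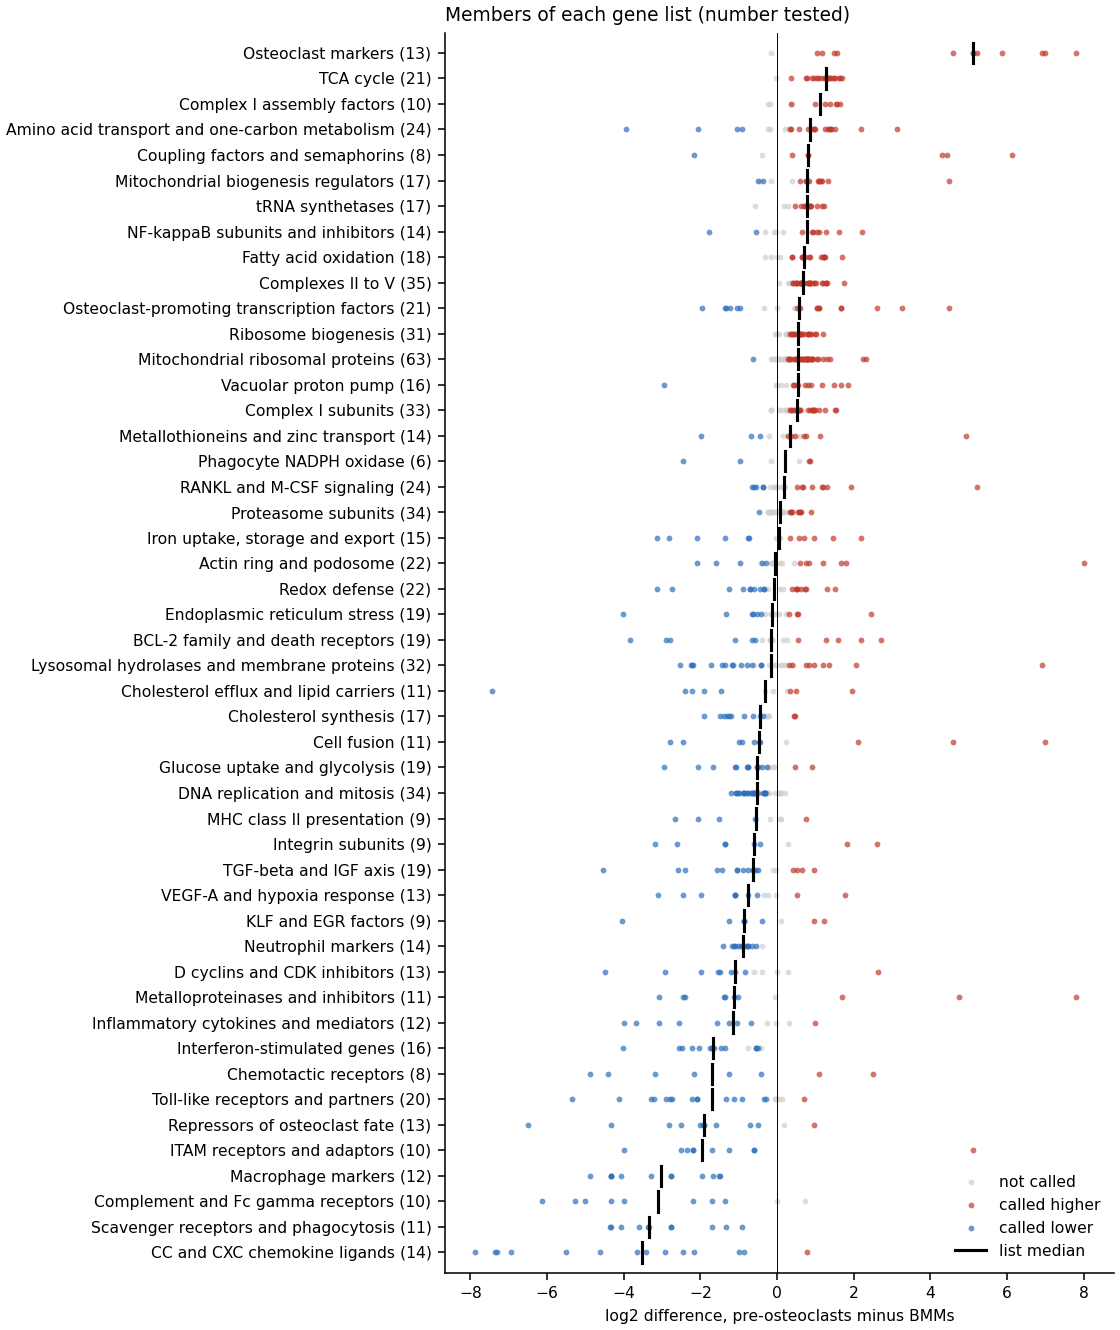
Log2 differences, pre-osteoclasts minus BMMs, of the tested members of each gene list with at least 5 tested genes, with the number tested in brackets (red, called higher; blue, called lower; grey, not called) and a black bar at the list median. Lists run from osteoclast markers (median 5.12) at the top to chemokine ligands (median −3.53) at the bottom, with the lists of mitochondrial genes clustered narrowly above 0.

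Genes of mitochondrial respiration rose, mostly by under 1 log2 unit, and none of those tested fell. Of 33 tested complex I subunit genes 20 rose, 0 fell and 13 did not pass (median 0.52), of 10 assembly factor genes 7 rose, 0 fell and 3 did not pass (median 1.12), and of 35 genes of complexes II to V 29 rose, 0 fell and 6 did not pass (median 0.67). Over all genes 29.1% rose and 25.9% fell. Ndufv1, the gene of the flavoprotein subunit that accepts electrons from NADH, read 12.15, 12.27 and 12.29 in BMMs and 13.56, 13.41 and 13.49 in pre-osteoclasts, for a difference of 1.25 ± 0.10 (SE, adjusted p = 1.18e-08). Ndufs4, which encodes a subunit that stabilizes the complex, read 12.40, 12.32 and 12.22 in BMMs and 12.49, 12.76 and 12.77 in pre-osteoclasts, for a difference of 0.36 ± 0.12 (SE, adjusted p = 0.0214). Ndufb10 and Ndufab1, the genes of a membrane arm subunit and of the acyl carrier protein, had the largest differences of the list (1.53 and 1.52). The stages did not overlap in Ndufv1 or Ndufs4 on these probes, although the Ndufs4 difference was under 0.4. Dimmer Ndufs4 probes gave larger rises of 0.609, 0.749 and 0.745, all of which passed.

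Members of complex I that did not pass included Ndufa1 (0.20), Ndufa3 (0.47), Ndufa5 (0.38), Ndufs6 (0.30) and Ndufc1 (0.39), while Ndufa4 (0.59), Ndufa6 (0.94), Ndufa9 (0.57), Ndufb2 (0.59), Ndufb6 (0.57), Ndufb8 (0.42), Ndufb9 (0.95) and Ndufc2 (0.46) rose. In the ERαf/f course 26 of the 33 rose, with a median of 0.72, and no complex I gene passed the test of the difference between genotypes. Ecsit and Ndufaf1, which encode assembly factors, rose (1.55 and 1.63). Cyc1, the cytochrome c1 gene of complex III, was at 11.15 ± 0.08 before and 12.91 ± 0.23 after RANKL (1.76), Cycs, the gene of cytochrome c, at 7.0 ± 0.16 before and 7.68 ± 0.26 after RANKL (0.67), and Atp5a1, which encodes the α subunit of ATP synthase, at 10.29 ± 0.13 before and 11.59 ± 0.21 after RANKL (1.30). Sdhb, the gene of the iron-sulfur subunit of complex II, rose (1.29), and Atp5b did not pass (0.04). A dimmer probe did not pass for Ndufb6 (0.48), Cycs (0.43) and Sdhb (0.41).

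TCA cycle genes rose in the largest share among the lists with more than 10 tested genes: 20 of 21 rose and Idh1, whose product is cytosolic, did not pass (−0.02), with a median of 1.29. Mdh2, the gene of mitochondrial malate dehydrogenase, read 10.83, 11 and 10.81 in BMMs and 12.50, 12.59 and 12.65 in pre-osteoclasts, for a difference of 1.70 ± 0.12 (SE, adjusted p = 2.99e-09). Cs, which encodes citrate synthase, read 10.95, 11.03 and 10.97 in BMMs and 12.27, 12.10 and 12.06 in pre-osteoclasts, for a difference of 1.16 ± 0.09 (SE, adjusted p = 9.34e-09). Idh3a, the gene of the catalytic subunit of NAD-dependent isocitrate dehydrogenase, read 9.30, 9.39 and 9.26 in BMMs and 10.88, 10.76 and 10.85 in pre-osteoclasts, for a difference of 1.52 ± 0.09 (SE, adjusted p = 8.67e-10). In each, every pre-osteoclast array was above every BMM array. The entry to the cycle moved with it, since Pdhb (1.64), Dlat (1.44) and Dld (1.61), the genes of the pyruvate dehydrogenase complex, rose. Of 18 fatty acid oxidation genes 14 rose, 0 fell and 4 did not pass (median 0.71), with Acaa2 (1.69) and Cpt2 (1.24), the genes of a thiolase and of carnitine palmitoyltransferase 2, among those that rose.

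Regulators of mitochondrial biogenesis rose in 12 of 17 and fell in 2 (median 0.79). Tfam, which encodes the main factor of mitochondrial DNA packaging and transcription, read 8.88, 9.05 and 9.27 in BMMs and 9.89, 10.03 and 9.76 in pre-osteoclasts, for a difference of 0.83 ± 0.15 (SE, adjusted p = 0.000218). Twnk, the gene of the mitochondrial helicase, rose from below detection (at least 2.15-fold), and the fusion genes Mfn2 (1.10) and Opa1 (1.07) rose with the fission gene Dnm1l (1.18), while Fis1 fell (−0.50). Nrf1, which encodes nuclear respiratory factor 1, fell slightly (−0.37). Of 63 mitochondrial ribosomal protein genes 40 rose, 1 fell and 22 did not pass (median 0.54), from Mrps6 (2.33) and Mrps35 (2.24) down to Mrpl33 (−0.62).

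Glucose uptake and glycolysis went the other way: of 19 tested genes 2 rose, 13 fell and 4 did not pass (median −0.52). Slc2a1, the gene of the glucose transporter GLUT1, read 12.08, 11.90 and 12.01 in BMMs and 11.17, 10.70 and 10.87 in pre-osteoclasts, for a difference of −1.09 ± 0.16 (SE, adjusted p = 2.62e-05). Slc2a3 and Slc2a6, which encode further members of this transporter family, fell by more (−2.94 and −2.07). Hk3 and Hk2, the hexokinase genes, fell (−1.66 and −0.75), and Pkm, which encodes pyruvate kinase, fell by 0.52. Gapdh (−0.08) and Ldha (−0.23), the genes of glyceraldehyde phosphate dehydrogenase and lactate dehydrogenase A, did not pass. Pgk1, the phosphoglycerate kinase gene, rose (0.92) on a dim probe (5.87 ± 0.30 before and 6.79 ± 0.22 after RANKL), with Pfkm, which encodes a phosphofructokinase (0.48).

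**Figure D4:**
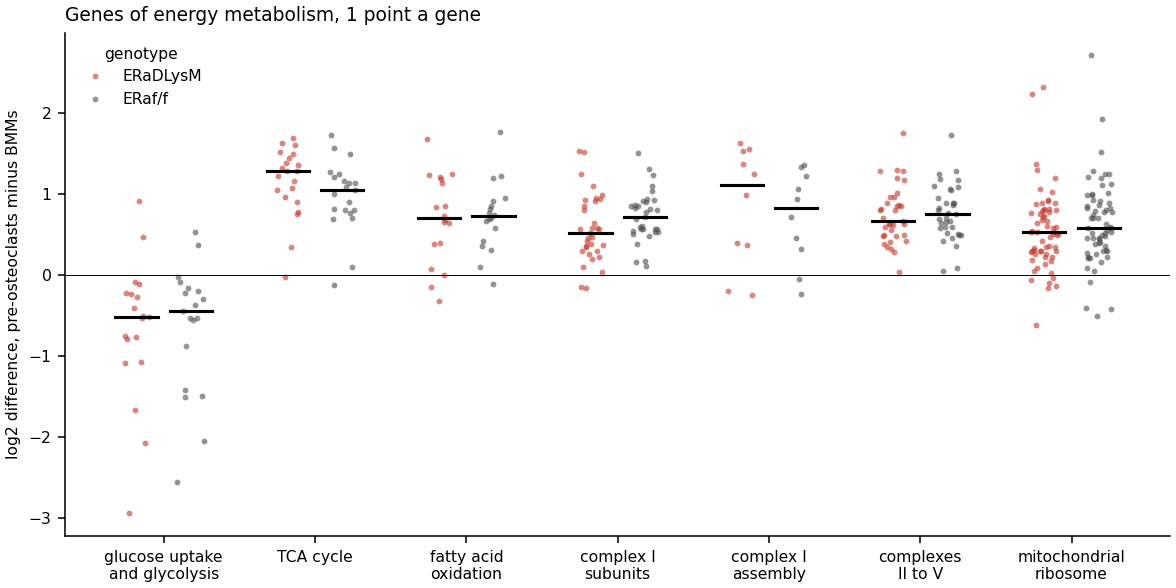
Log2 differences, pre-osteoclasts minus BMMs, of the tested genes of 7 lists of energy metabolism, 1 point a gene, in ERαΔLysM cells (red) and ERαf/f cells (grey), with bars at the medians. Most genes of the mitochondrial lists lie above 0 and most of glycolysis below 0 in both genotypes.

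Genes of the hypoxia response mostly fell. Of 13 tested genes 2 rose, 8 fell and 3 did not pass (median −0.75). Hif1a, the gene of the oxygen-regulated subunit of HIF-1, fell from 8.18, 7.58 and 7.48 to 7.11, 6.24 and 6.62 (−1.09). Egln3 and P4ha2, which encode prolyl hydroxylases, fell by more (−3.12 and −2.46). Vegfa, the angiogenic factor gene, read 7.18, 7.36 and 7.24 in BMMs and 9.09, 9.20 and 8.79 in pre-osteoclasts, for a difference of 1.77 ± 0.14 (SE, adjusted p = 2.04e-08), and Arnt, which encodes the partner of HIF-1α, was the other gene that rose (0.53).

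Cholesterol synthesis genes fell in 10 of 17 and rose in 2 (median −0.45). Sqle, the squalene epoxidase gene, read 11.27, 11.25 and 11.28 in BMMs and 10.16, 9.85 and 9.67 in pre-osteoclasts, for a difference of −1.37 ± 0.11 (SE, adjusted p = 1.94e-08). Cyp51 (−1.48), Hsd17b7 (−1.30) and Fdps (−1.19), the genes of later and earlier enzymes of the route, fell as well, and Srebf2, which encodes the factor that drives them, fell less (−0.62). Hmgcs1, the gene of the enzyme before the rate-limiting step, did not pass (−0.23). On the export side Apoe fell (−2.23), and Abcg1, a sterol efflux pump gene, rose from below detection (at least 2.56-fold).

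The iron importer gene rose and the exporter gene fell. Of 15 tested iron genes 6 rose, 6 fell and 3 did not pass. Tfrc, the transferrin receptor gene, read 11.99, 12.07 and 11.86 in BMMs and 13.52, 13.46 and 13.35 in pre-osteoclasts, for a difference of 1.47 ± 0.10 (SE, adjusted p = 3.93e-09). Slc40a1, which encodes ferroportin, the iron exporter, read 11.97, 11.72 and 11.75 in BMMs and 9.14, 9.04 and 8.83 in pre-osteoclasts, for a difference of −2.81 ± 0.13 (SE, adjusted p = 2.09e-11). Hmox1, the gene of heme oxygenase 1, read 13.09, 13.18 and 13.23 in BMMs and 9.88, 10.09 and 10.11 in pre-osteoclasts, for a difference of −3.14 ± 0.13 (SE, adjusted p = 6.23e-12). None of these overlapped between stages, and Ncoa4, which encodes the receptor for ferritin breakdown, rose (2.20) while Fth1 did not pass (−0.02).

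Redox genes moved both ways. Of 22 tested 9 rose, 10 fell and 3 did not pass (median −0.09). The mitochondrial members Prdx3 (0.76), Txn2 (1.32), Txnrd2 (0.63) and Sod2 (0.53) rose, while Nfe2l2, which encodes NRF2, and its target Gclm fell (−0.71 and −1.27), as did Cat, the catalase gene (−0.89), and Gpx3 (−2.75). Cytosolic Sod1 and Txn1 also rose (0.38 and 0.51). Of 6 tested genes of the phagocyte oxidase 2 rose and 2 fell, with Ncf1, the gene of p47phox, at 10.61 ± 0.06 before and 8.16 ± 0.39 after RANKL (−2.45). Of 14 metallothionein and zinc transport genes 7 rose, 3 fell and 4 did not pass, and Mt3 rose from below detection to 8.99, 9.31 and 10.14, at least 17.0-fold higher.

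Genes of amino acid supply and protein synthesis rose. Of 24 tested genes of amino acid transport and one-carbon metabolism 16 rose, 4 fell and 4 did not pass (median 0.85), of 17 tRNA synthetase genes 14 rose, 0 fell and 3 did not pass (median 0.78), and of 31 ribosome biogenesis genes 22 rose, 0 fell and 9 did not pass (median 0.54). Asns, which encodes asparagine synthetase, read 11.43, 11.35 and 11.33 in BMMs and 12.97, 12.86 and 12.80 in pre-osteoclasts, for a difference of 1.51 ± 0.10 (SE, adjusted p = 2.02e-09). Phgdh (1.35) and Shmt2 (1.25), the genes of serine synthesis and of mitochondrial serine breakdown, rose, and Slc1a5, a glutamine transporter gene, rose from below detection (at least 1.99-fold). Chac1, which encodes an enzyme of glutathione breakdown and is a target of ATF4, had the largest rise of the list (3.14). Slc7a8, the gene of another neutral amino acid transporter, fell from 12.42, 12.41 and 12.35 to 8.55, 8.30 and 8.48 (−3.95).

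Genes of the integrated stress response moved both ways. Atf4, which encodes its main factor, rose (0.51) and so did Ppp1r15a, which encodes the phosphatase subunit GADD34 (2.45), whereas Ddit3, the CHOP gene, fell (−0.61) and Atf3 fell at least 13.4-fold, below detection in pre-osteoclasts. Of 19 genes of endoplasmic reticulum stress 4 rose, 6 fell and 9 did not pass, with Hspa5, the gene of the chaperone BiP, at −0.02. Over all genes the shares were 29.1% and 25.9%, so this list is not far from them. Most proteasome genes, 25 of 34, did not pass, 8 rose and 1 fell (median 0.08).

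Proliferation genes were lower. Of 34 tested genes of DNA replication and mitosis 24 fell, none rose and 10 did not pass (median −0.53, lowest −1.19). Ccne2 and Ccne1, the cyclin E genes, Ube2c, which encodes a mitotic ubiquitin-conjugating enzyme, and Tk1, the thymidine kinase gene, fell the most in this list (−1.19, −1.08, −1.08 and −1.02). Ccnd1, which encodes the M-CSF-induced cyclin D1, read 14.51, 14.57 and 14.64 in BMMs and 11.75, 11.48 and 11.71 in pre-osteoclasts, for a difference of −2.93 ± 0.12 (SE, adjusted p = 3.16e-12). Cdkn2b, the gene of the CDK inhibitor p15, read 7.43, 7.83 and 7.73 in BMMs and 10.25, 10.29 and 10.34 in pre-osteoclasts, for a difference of 2.63 ± 0.15 (SE, adjusted p = 2.49e-10). Cdkn1a, which encodes p21, read 13.15, 13.03 and 13.25 in BMMs and 11.65, 11.46 and 11.69 in pre-osteoclasts, for a difference of −1.54 ± 0.09 (SE, adjusted p = 5.93e-10). Cdkn2b alone of the 13 tested genes of D cyclins and CDK inhibitors rose, and 8 fell, including Ccnd2, below detection in pre-osteoclasts and at least 13-fold lower.

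Cell death genes moved in both directions. Of 19 tested members of the BCL-2 family and death receptors 5 rose, 6 fell and 8 did not pass (median −0.15). These shares are near those over all genes, of which 29.1% rose and 25.9% fell. Bcl2l11, the gene of the pro-apoptotic protein BIM that sets osteoclast lifespan, read 9.33, 9.28 and 9.36 in BMMs and 10.50, 10.71 and 10.63 in pre-osteoclasts, for a difference of 1.29 ± 0.10 (SE, adjusted p = 1.76e-08). The survival genes Bcl2 and Bcl2l1, the latter encoding BCL-XL, fell (−2.90 and −3.84), and Mcl1, another survival gene, rose (0.55). Bmf, Bok and Pmaip1, which encode further pro-apoptotic members, rose (2.18, 2.72 and 1.58), and Bik, another of these, was below detection in pre-osteoclasts, at least 5.83-fold lower. Bak1, the gene of the pore-forming effector BAK, was at 7.09 ± 0.27 before and 6.70 ± 0.45 after RANKL and did not pass (−0.39), nor did the death receptor gene Fas (−0.14). Fasl was below detection on all 6 arrays, and Bax was not analysed here.

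Growth factor genes of the TGF-β and IGF axis fell in 13 of 19 and rose in 4 (median −0.64). Igf1 read 12.94, 13.17 and 13.23 in BMMs and 8.26, 8.62 and 8.85 in pre-osteoclasts, for a difference of −4.54 ± 0.19 (SE, adjusted p = 6.23e-12). Smad6, which encodes an inhibitor of BMP signals, fell (−2.59) together with Smad1 (−1.04), and Tgfbr1, the type I TGF-β receptor gene, rose (0.96). Of 17 hormone-binding nuclear receptor genes on the array only 4 passed the filter, and Esr2, the gene of estrogen receptor β, was below detection on all 18 arrays. Of the 4, Rxrb, which encodes a retinoid X receptor, rose (1.84), Pparg fell, and 2 did not pass.

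The course without ERα was set beside that of ERαf/f cells, which shares no array with it. In ERαf/f cells 6035 of the same 11739 probes differed (51.4%), 3189 higher and 2846 lower. With arrays only centred on their medians that split was 1102 higher and 2985 lower, and in ERαΔLysM cells 1649 and 1927. In the fit used here, 4915 probes were called in the same direction in both courses, 79.6% of the calls in ERαΔLysM and 81.4% of those in ERαf/f cells. Across probes, which are not independent replicates, the differences of the genotypes had r = 0.95, and among probes called in both in the same direction the median ratio of ERαΔLysM to ERαf/f differences was 1.01. For 10 probes the calls had opposite directions, with 0.87 the largest difference in either course in size and none past the test of the difference between genotypes. The osteoclast markers had a median of 5.16 in ERαf/f cells and the macrophage markers a median of −3.01. A probe called in 1 genotype only is not thereby different between the genotypes.

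The test of that difference passed for 7 of 11739 probes (0.0596%), 6 with a higher and 1 with a lower value in the ERαΔLysM course. At an unadjusted p under 0.05 there were 1232, where 587 is 5% of those tested, and the median standard error of a difference between genotypes was 0.23, and the smallest difference called was 0.83 in size. The difference had a size of at least 1 in 84 probes. Loss of ERα and any other difference between the mice of the genotypes, such as the Cre itself, cannot be told apart here.

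Tnfrsf9, which encodes the costimulatory receptor 4-1BB, was below detection in BMMs of both genotypes and read 8.61, 9.04 and 8.44 in ERαΔLysM and 7.08, 6.81 and 7.12 in ERαf/f pre-osteoclasts. The fitted difference between the courses, ERαΔLysM minus ERαf/f, was 1.79 (standard error 0.22, limma adjusted p = 0.00228). A dimmer probe for the gene gave 1.08 (adjusted p = 0.214). Cyb561, the gene of a transmembrane cytochrome b, was likewise undetected in BMMs and read 8.51, 8.37 and 8.51 against 7.06, 6.71 and 6.41, a difference of 1.68 (adjusted p = 0.00228). Tmem267, a transmembrane protein gene, showed the reverse, at 6.99, 6.99 and 6.89 against 8.50, 8.29 and 8.14, a difference of −1.47 (adjusted p = 0.00538). In these 3 genes the genotypes parted after RANKL, and the pre-osteoclast arrays of the genotypes did not overlap. All 3 were below detection in BMMs, so their differences rest on the pre-osteoclast levels and include background readings of the BMMs.

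The other 4 calls were kept less often when arrays were left out. Vegfa read 7.18, 7.36 and 7.24 in ERαΔLysM and 8.36, 8.41 and 8.32 in ERαf/f BMMs but 9.09, 9.20 and 8.79 and 9.03, 8.50 and 8.94 in pre-osteoclasts, so it rose by 1.77 against 0.46 (difference 1.31, adjusted p = 0.0214). A dimmer Vegfa probe gave a difference of 1.12 that did not pass (limma adjusted p = 0.177). Ccnd2, the cyclin D2 gene, read 9.27, 9.07 and 8.93 and 10.12, 10.25 and 10.23 in BMMs and was below detection in pre-osteoclasts of both, so its difference of 1.09 (adjusted p = 0.0263) rests on the BMM levels. Arf2, which encodes a small GTPase of the secretory pathway, read 10.55, 10.48 and 10.34 against 9.51, 9.23 and 9.21 in pre-osteoclasts and fell by 0.59 against 1.52 (difference 0.93, adjusted p = 0.0284). Arf2 and Cyb561 both lie on chromosome 11. For Add3, the γ-adducin gene, the called probe was dim and below detection in pre-osteoclasts (difference 0.83, adjusted p = 0.0465), while another, clearly detected probe gave 0.13 (adjusted p = 0.837). Leaving out each of the 12 arrays of both courses in turn kept the calls of Tnfrsf9, Cyb561 and Tmem267 in all 12 cases, that of Vegfa in 6, Ccnd2 in 4, Arf2 in 2 and Add3 in 1. With arrays only centred on their medians, none of the 7 passed. Over all settings run the difference ranged from 1.13 to 1.91 for Tnfrsf9, from 1.01 to 1.85 for Cyb561 and from −1.68 to −0.88 for Tmem267.

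**Figure D5:**
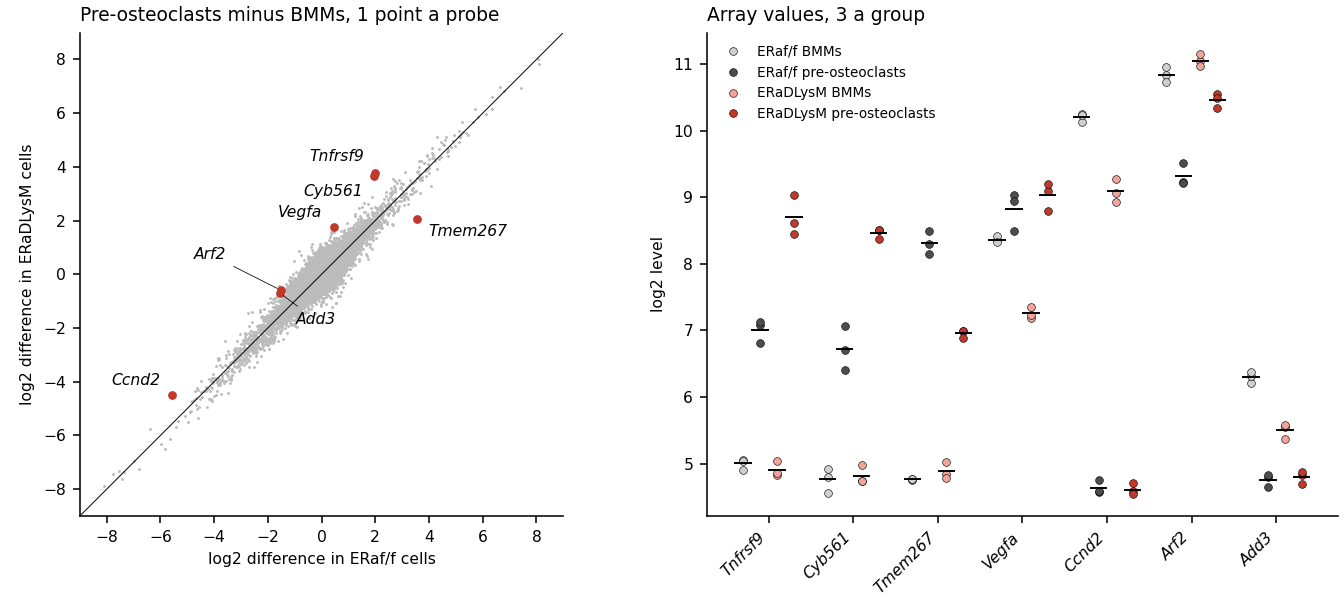
Left, log2 differences between pre-osteoclasts and BMMs in ERαΔLysM cells against those in ERαf/f cells, 1 point a tested probe, with the line of equal difference and the 7 probes past the test of the difference between genotypes in red. Right, log2 levels of these 7 probes on the 3 arrays of each genotype and stage with bars at the means; Tnfrsf9, Cyb561 and Tmem267 part at the pre-osteoclast stage, Vegfa and Ccnd2 in BMMs.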

How the data were processed

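RNA of 18 cultures was hybridized to Illumina MouseRef-8 beadchips. The authors deposited mean bead intensity and a detection p-value against negative control beads for each probe and array, and log2 values that they had preprocessed and normalized with lumi in R. Settings were not given in the sources used here. A neqc normalization of the intensities (background correction, offset of 16, quantile normalization, log2) came within 0.0281 of the deposited log2 values on every probe and array, so the values are quantile normalized and a shift shared by all transcripts would not appear in them. Differences that involve dim probes depend on the background correction. Without it the median difference of the osteoclast markers was 3.10 instead of 5.12.

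Of 26529 features, 832 (3.14%) lacked a probe ID and were not tested. Of the 11739 tested probes, 11071 had 1 gene symbol in GEO's platform annotation and 668 had none, and 11065 matched RefSeq by gene number. The chip version named in the methods and that of the annotation are not the same, and probes were named through the annotation's probe IDs.

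The deposited log2 values were fitted with limma 3.58.1 in R 4.3.3 as means of 6 groups (12 residual and 3.67 prior degrees of freedom), with contrasts for the ERαΔLysM course, the ERαf/f course and their difference, and Benjamini-Hochberg adjustment over all tested probes. On simulated data (11739 features, 200 changed) the fit called 81% of changes of 1 log2 unit and 23% of changes of 0.5. Of 110 calls there, 5.455% were false. In the real comparison 52.6% of probes were called, a far larger share than was changed in the simulation. The adjusted p depends on that share, so these rates do not describe the real comparison. A probe below detection on all 3 arrays of a stage has only a bound there. Its fold is then given as at least the ratio of the mean of the other stage to, on each array, the higher of the probe's own value and the dimmest detected signal.

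Genes were compared with 54 lists (1233 entries). Genes named are the 12 highest and 12 lowest without overlap between stages, members of the lists, genes the study follows, and all that passed the test between genotypes. The contrast, lists and naming rule were chosen with earlier results of these data known. Alternatives were other normalizations, detection filters, priors, array weights, thresholds, a replicate block, and leaving out each array. Tables and plots used Python 3.11.15 with pandas 2.3.3, numpy 2.4.6, scipy 1.17.1 and matplotlib 3.10.9.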

Additional observations from a re-analysis of the deposited data

Results flagged for a closer look

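The 7 probes whose RANKL response differed between the genotypes by the limma test of that difference were Tnfrsf9 (1.79 on the log2 scale, ERαΔLysM minus ERαf/f), Cyb561 (1.68), Tmem267 (−1.47), Vegfa (1.31), Ccnd2 (1.09), Arf2 (0.93) and Add3 (0.83). In each, the group means of both genotypes differed in the same direction between the stages. For Ccnd2 and Add3 the called probes were below detection in pre-osteoclasts, so their differences rest on the BMM levels. Those of Tnfrsf9, Cyb561 and Tmem267 were below detection in BMMs, so their differences rest on the pre-osteoclast levels. Another, clearly detected Add3 probe gave 0.13 (limma adjusted p = 0.837). Dimmer probes of Tnfrsf9 and Vegfa gave 1.08 and 1.12 (limma adjusted p = 0.214 and 0.177).

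Data outside the comparison also held signal. Of the 832 features without a probe ID, 56 were detected on at least 3 of the 6 arrays and 26 on all 6. None was detected on every array of 1 stage and on no array of the other. In 2 of them the BMM arrays lay above all pre-osteoclast arrays, and in 0 the reverse.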

How the results depend on the processing

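No main call turned to the opposite direction under any of the settings that refitted all probes, and with arrays left out in turn between 5461 and 5568 of the 6174 calls were kept. For the ERαΔLysM course, leaving out 1 array gave 5601 to 5851 calls (2940 to 3092 higher and 2661 to 2774 lower), centring arrays on their medians gave 3576 (1649 higher, 1927 lower), and requiring a difference of at least 1 gave 2336 (1075 higher, 1261 lower). For the ERαf/f course the latter gave 2232 (1017 higher, 1215 lower), centring gave 1102 higher and 2985 lower, and leaving out 1 array gave 5388 to 5860 calls. The calls of a difference between genotypes, 7 (6 higher, 1 lower), were replaced by 1 (1 higher, 0 lower) that is none of the 7 with median centring, and numbered 2 (2 and 0) among probes detected on every array, 3 (2 higher) with only the 12 arrays in the fit, and 3 (2 higher) at an adjusted p under 0.01. Without 1 array they numbered 3 to 9 (2 to 8 higher, 1 to 2 lower), with 3 or 4 without BMM replicates 2 or 3 or pre-osteoclast replicate 2 of either genotype or pre-osteoclast replicate 1 of ERαΔLysM. Whether same-numbered arrays share an animal is not stated. Deviations of same-numbered arrays from their group means correlated at 0.10, 0.02 and 0.03 in ERαΔLysM and at −0.27, −0.24 and −0.15 in ERαf/f cells. Deviations from means of only 3 arrays cannot exclude pairing. With a replicate block within genotype 3 calls were left (2 higher), and with the block and only the 12 arrays 0 (0 higher, 0 lower).

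The median of the osteoclast markers, 5.12, was 3.10 without background correction, 4.86 with median centring, 3.08 without a detection filter, 1.48 among probes detected on every array, 4.60 as the mean of a gene's probes, and 4.90 to 5.19 with 1 array left out, lowest without BMM replicate 3. That of the macrophage markers, −3.03, was −2.00 without background correction, −2.77 without a filter, −1.95 among probes detected on every array and −3.12 to −3.00 with 1 array left out. The stricter filter removes genes that are silent at either stage. Of 48 lists with a median, 4 changed its sign under some setting, and 0.209 was the largest main median in size among these. Among the 4, the median of the redox list turned from −0.09 to 0.07 with the stricter filter. That of the phagocyte oxidase list turned from 0.21 to −0.17 with it and −0.027 without a filter. Of 816 list and setting pairs, 713 stayed within the SD of the list's array medians inside a stage. Another 100 moved further, and 3 turned from a main median larger than that SD. For 381 named genes, 5832 of 6023 gene and setting pairs kept direction and side of the threshold, 176 lost the call (70 genes), 15 gained it and 0 turned. The cause was not tested for these shifts. Among 2180 genes with several tested probes, 1505 had the same call on all probes and 16 had probes called in opposite directions. Probes that disagree are given in the text for some genes only.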
